A study of Mus musculus with 4 samples.

Results

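The genes described here carry glucose into the cell, break it down to pyruvate and lactate, or belong to the hypoxia-inducible factor (HIF) system that adjusts this pathway to oxygen. They are 40 listed genes, of which 36 could be matched to a probe set annotated with exactly 1 gene symbol, among 30142 genes so measured. Of several probe sets of a gene, the brightest on average was taken. Gpi1, Pfkfb1, Pfkfb2 and Eno1 had no such match and are not analysed here.

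The cells were lineage-negative, c-Kit-positive blood stem and progenitor cells (LK cells) from mice of the NOD strain, which develop autoimmune diabetes. The combination group was cultured for 4 h at 37 °C in StemSpan medium with dimethyl prostaglandin E2 (dmPGE2, 10 µM), a long-lived prostaglandin E2 analog, and dexamethasone (10 µM), a synthetic glucocorticoid. The vehicle group was cultured in the same medium for the same time with DMSO, the solvent. Each group had 2 arrays, numbered 1 and 2. Both drugs were given together, so their separate effects cannot be told apart, and the sources used here do not state the age or sex of the mice, or the oxygen level of the culture. The duplicates are described as biological, but not whether they came from separate mice, so p-values measure only the spread between these arrays.

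Glucose enters through transporters of the Slc2a family and is trapped by hexokinases, and the phosphofructokinase step then commits it to glycolysis. Pyruvate is reduced to lactate by lactate dehydrogenase and leaves through monocarboxylate carriers. Otherwise it is oxidised in mitochondria, a step that pyruvate dehydrogenase kinases block. In low oxygen, prolyl hydroxylases no longer mark the HIF-1α protein for degradation by the von Hippel-Lindau ligase, and HIF-1α with its partner ARNT switches on many of these genes. Blood stem and progenitor cells are known for a strongly glycolytic metabolism in which HIF-1α takes part.

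HIF binds DNA at a short core, of which only the form ACGTG was searched here, and not GCGTG. The promoters of the members that differed most between the groups are printed here. Those of Ldha and Bnip3, established HIF targets that differed little, are printed beside them. Each line gives the 250 bases before the RefSeq transcription start (build GRCm38.p6, 5′ to 3′ along the gene's strand), and for genes with several starts the outermost one. Capitals mark ACGTG on either strand, which reads CACGT on the other, so that the palindrome CACGTG counts on both strands.
Hif1a (chr12:73907617-73907866, plus strand): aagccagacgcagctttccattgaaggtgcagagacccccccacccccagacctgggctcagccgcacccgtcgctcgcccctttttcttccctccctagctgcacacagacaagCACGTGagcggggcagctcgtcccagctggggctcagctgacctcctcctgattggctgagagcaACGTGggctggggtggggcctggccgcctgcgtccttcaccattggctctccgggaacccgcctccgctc
Slc2a1 (chr4:119108495-119108744, plus strand): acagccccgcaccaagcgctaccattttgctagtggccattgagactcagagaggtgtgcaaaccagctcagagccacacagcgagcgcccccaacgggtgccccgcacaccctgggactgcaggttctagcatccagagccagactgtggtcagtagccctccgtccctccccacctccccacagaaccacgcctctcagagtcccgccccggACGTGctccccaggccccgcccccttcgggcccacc
Pfkfb4 (chr9:108991652-108991901, plus strand): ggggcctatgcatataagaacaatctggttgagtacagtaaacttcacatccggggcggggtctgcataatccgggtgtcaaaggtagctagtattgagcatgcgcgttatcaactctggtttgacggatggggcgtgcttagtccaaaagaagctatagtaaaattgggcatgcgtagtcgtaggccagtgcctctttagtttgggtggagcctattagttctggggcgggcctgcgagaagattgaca
Pkm (chr9:59656326-59656575, plus strand): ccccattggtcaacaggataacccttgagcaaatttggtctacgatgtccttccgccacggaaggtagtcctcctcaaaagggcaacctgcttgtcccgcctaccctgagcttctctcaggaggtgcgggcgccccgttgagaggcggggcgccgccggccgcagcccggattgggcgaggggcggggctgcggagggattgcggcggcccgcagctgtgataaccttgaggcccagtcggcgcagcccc
Slc16a1 (chr3:104638414-104638663, plus strand): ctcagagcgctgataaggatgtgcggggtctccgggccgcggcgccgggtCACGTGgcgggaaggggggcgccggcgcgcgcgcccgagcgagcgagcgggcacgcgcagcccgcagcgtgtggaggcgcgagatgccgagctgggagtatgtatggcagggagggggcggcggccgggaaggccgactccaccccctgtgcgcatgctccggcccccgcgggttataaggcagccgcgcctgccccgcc
Ldha (chr7:46845554-46845803, plus strand): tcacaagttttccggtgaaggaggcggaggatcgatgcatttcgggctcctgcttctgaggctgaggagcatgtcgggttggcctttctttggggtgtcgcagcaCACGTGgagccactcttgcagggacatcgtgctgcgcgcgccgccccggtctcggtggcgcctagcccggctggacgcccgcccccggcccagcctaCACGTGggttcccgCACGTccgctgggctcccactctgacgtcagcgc
Bnip3 (chr7:138909507-138909756, minus strand): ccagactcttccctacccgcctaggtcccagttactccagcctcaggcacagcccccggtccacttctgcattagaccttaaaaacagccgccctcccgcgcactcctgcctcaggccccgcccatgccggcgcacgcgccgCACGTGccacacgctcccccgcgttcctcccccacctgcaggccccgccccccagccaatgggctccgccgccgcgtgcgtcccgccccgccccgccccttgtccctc
Hif1a and Slc2a1 held ACGTG, and so did Slc16a1, Ldha and Bnip3, while Pfkfb4 and Pkm held no ACGTG in this window. The printed Pfkfb4 window does hold GCGTG, which was not counted.

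Of the 33 measured members with a RefSeq promoter, 18 held ACGTG in these 250 bases, which is 54.5%, against 17.9% of the 17970 promoters of all measured genes that had one. The members were listed as glycolytic genes and HIF targets, so this share is a property of the list. The letters TGACG on either strand, the core that the cAMP factor CREB binds, stood in 7 of the 33 promoters (21.2%, against 20.2% of all). The letters AGAACA on either strand, part of the site that the glucocorticoid receptor binds, stood in 5 of them (15.2%, against 14.5%). A CREB core overlapped an ACGTG core in Hk2, Pfkfb3 and Slc16a3. Matches are letters only, and the arrays did not measure binding.

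**Figure D1:**
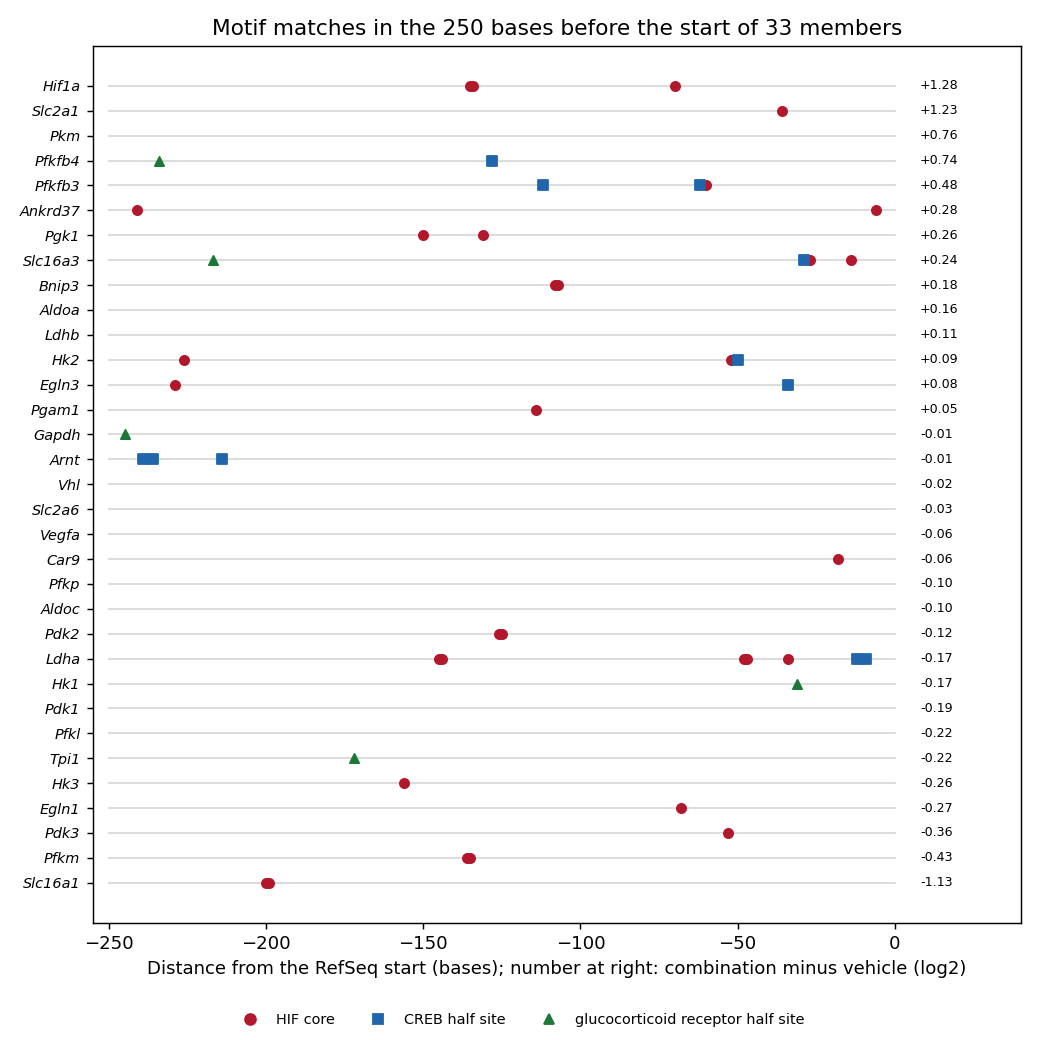
Positions of ACGTG (HIF core, this form only), TGACG (CREB) and AGAACA (glucocorticoid receptor) on either strand in the 250 bases before the RefSeq start. The 33 members with a promoter are ordered from the highest to the lowest difference between combination and vehicle (log2, at the right). Members with an ACGTG core lie at both ends of the order, from Hif1a (1.28) to Slc16a1 (-1.13).

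Signals are given as log2 RMA values, so a difference of 1 means a doubling. Differences are combination minus vehicle, with the standard error (SE) and the two-sided p of limma's moderated test, and each SD covers the 2 arrays of a group. Array medians over all features ran between 4.36 and 4.44. Single background probe sets reached 5.55, so signals up to this level cannot be told from background, and differences of dim genes may be understated. The stem cell factor receptor gene Kit, whose protein defines the sort, had 10.51 and 9.62 on the combination arrays and 10.18 and 10.32 on the vehicle arrays. The T and NK cell markers lay at background on all arrays, in 6 of 6 measured genes.

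The arrays of each group differed in the neutrophil genes of late maturation. Ngp, a granule protein gene, had 14.98 on combination array 1 and 9.93 on combination array 2, against 14.82 on vehicle array 1 and 8.69 on vehicle array 2. The linear signals of 10 mature neutrophil markers summed to 103764 and 41154 in the combination group and 93237 and 20447 in the vehicle group. Those of 6 measured erythroid markers summed to 166375 and 77607 with the combination and to 204967 and 94814 with vehicle. Both sums were higher on the arrays numbered 1 in either group, but not every marker was. The erythroid sum was mostly the carbonic anhydrase gene Car1, with 17.21 and 15.98 on the combination arrays and 17.50 and 16.29 on the vehicle arrays. The red cell anion exchanger gene Slc4a1 went the other way, with 9.75 and 11.41 on the combination arrays and 10.79 and 11.77 on the vehicle arrays. Of the neutrophil markers, Cxcr2 was higher on combination array 2 than on combination array 1, by 1.08. In bulk samples fewer cells of a type and less RNA per cell cannot be told apart.

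No member passed limma's threshold of an adjusted p of 0.05 over all 65956 features, which 0.00303% of the features did; an unadjusted p under 0.05 was reached by 5.58% of them in either direction. The lowest adjusted p among members was 0.50, for Slc16a1. At an unadjusted p under 0.05, 5 of the 36 members (13.9%) were higher with the combination, against 2.66% of all named genes and 3.53% of the named genes whose mean lay above the background range. At the same threshold 1 member was lower (2.78%), against 2.65% of all named genes and 5.14% of those above background. The 5 higher members were Hif1a, Slc2a1, Pkm, Pfkfb4 and Epas1, and the lower one was Slc16a1. The other 30 differed by between -0.43 and 0.48. Of all 36 members, 6 had a mean within the background range, Epas1 among them. The members' shares and those of genes above background are therefore not of like sets.

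The median difference of the members was -0.01, with -0.02 within number 1 and 0.00 within number 2, against 0.01 for all named genes and -0.05 for those above background. Both combination arrays lay above both vehicle arrays for 8 members (22.2%) and below them for 7 (19.4%), against 19.7% and 15.4% of all named genes and 12.7% and 22.8% of those above background. The share below lay between its backgrounds, and the share above exceeded both of its own, by less against all named genes. The 27 members that differed by less than 0.3 in either direction included Gapdh, Ldha, Vegfa and both Bnip3 genes.

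**Figure D2:**
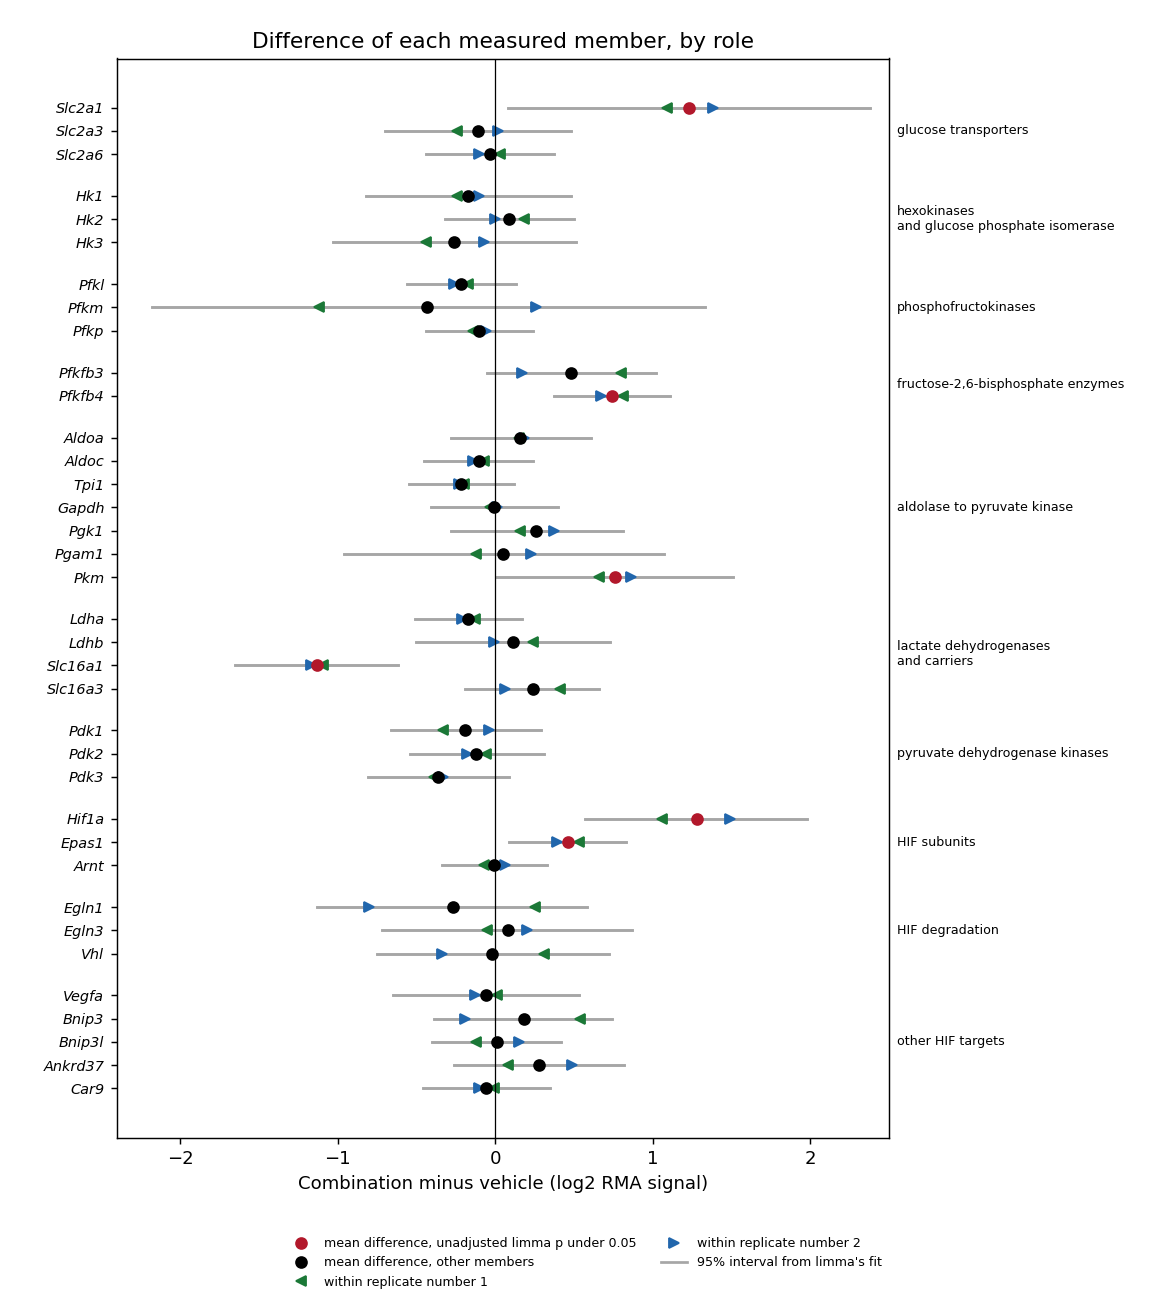
Difference between combination and vehicle (log2 RMA signal) of the 36 measured members, grouped by role, with the mean (circle, red where limma's unadjusted p was under 0.05), the difference within each replicate number (triangles) and the 95% interval of limma's fit (grey line). Hif1a, Slc2a1, Pkm, Pfkfb4 and Epas1 lie to the right of 0 with both triangles, and Slc16a1 lies to the left. All other intervals span 0.

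Among the HIF subunits, Hif1a was higher with the combination. Hif1a, which encodes the oxygen-regulated HIF-1α subunit, had 11.98 and 12.65 on the combination arrays and 10.92 and 11.16 on the vehicle arrays. Both combination arrays were above both vehicle arrays, and the groups did not overlap. The difference was 1.28 (SE 0.27, 95% interval 0.57 to 1.98, limma adjusted p = 0.63), which is 2.42-fold. It was 1.06 within number 1 and 1.49 within number 2.

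Epas1, the gene of the related subunit HIF-2α, had 4.64 and 4.69 with the combination and 4.11 and 4.30 with vehicle. The groups did not overlap, but every array lay within the range of background probe sets, so whether the transcript was present is not settled by these values. The difference was 0.46 (SE 0.14, 95% interval 0.09 to 0.83, limma adjusted p = 0.82). Its unadjusted p was no longer under 0.05 without combination array 1 (0.48), combination array 2 (0.43) or vehicle array 1 (0.36). Arnt, the gene of the shared partner HIF-1β, had 8.30 and 8.38 with the combination and 8.37 and 8.33 with vehicle, a difference of -0.01 with a 95% interval of -0.34 to 0.33. The Arnt groups overlapped.

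None of the 3 genes that degrade HIF-1α passed at an unadjusted p under 0.05. Egln1, which encodes the main prolyl hydroxylase PHD2, had 8.96 and 8.81 with the combination and 8.71 and 9.60 with vehicle. Its difference was 0.25 within number 1 and -0.80 within number 2, so the direction changed with the number. The Egln1 mean difference was -0.27 (95% interval -1.13 to 0.58), and without vehicle array 1 it was -0.72 and without vehicle array 2 it was 0.17. Egln3, which encodes the hypoxia-induced hydroxylase PHD3, averaged 9.81 ± 0.50 with the combination and 9.73 ± 0.31 with vehicle (SD, n = 2 each). Vhl, the substrate receptor of the ligase, had means of 5.43 and 5.45 in the combination and vehicle groups, both in the background range.

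Of the 5 established HIF targets outside glycolysis, 0 passed at an unadjusted p under 0.05 (limma). Vegfa, the vascular growth factor gene, had 8.53 and 8.07 with the combination and 8.53 and 8.20 with vehicle, a difference of -0.06 (95% interval -0.65 to 0.53). Bnip3 and Bnip3l, which mark mitochondria for removal, differed by 0.18 (-0.39 to 0.74) and 0.01 (-0.40 to 0.42). Each of these groups overlapped. Ankrd37, a small ankyrin repeat gene induced by HIF-1, had 5.70 and 5.62 with the combination and 5.62 and 5.13 with vehicle. Its vehicle mean of 5.38 lay in the background range, and its combination mean of 5.66 lay just above that range. The Ankrd37 difference was 0.28 (95% interval -0.26 to 0.82). Car9, a carbonic anhydrase gene that is a standard hypoxia marker, was in the background range in both groups, at 4.48 ± 0.10 with the combination and 4.54 ± 0.17 with vehicle (SD, n = 2 each).  The intervals of Vegfa and Bnip3 still allow differences of over 0.5 in size.

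Of the 3 glucose transporters, Slc2a1 was the 1 gene with an unadjusted p under 0.05. It encodes GLUT1, a glucose carrier of many dividing cells. Its signal was 11.11 and 12.13 on the combination arrays and 10.02 and 10.76 on the vehicle arrays. The groups did not overlap, although combination array 1 lay only a little above vehicle array 2. The difference was 1.23 (SE 0.44, 95% interval 0.08 to 2.38, limma adjusted p = 0.88), which is 2.35-fold. It was 1.09 within number 1 and 1.38 within number 2. Slc2a1 was higher on the arrays numbered 2 in both groups, by 1.03 with the combination and 0.74 with vehicle. Without combination array 2 the difference was 0.72 and without vehicle array 1 it was 0.86, both no longer under an unadjusted p of 0.05 in limma. Slc2a3, the high-affinity carrier GLUT3, differed by -0.11 and Slc2a6, another hexose carrier, by -0.03, and the groups of both overlapped.

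**Figure D3:**
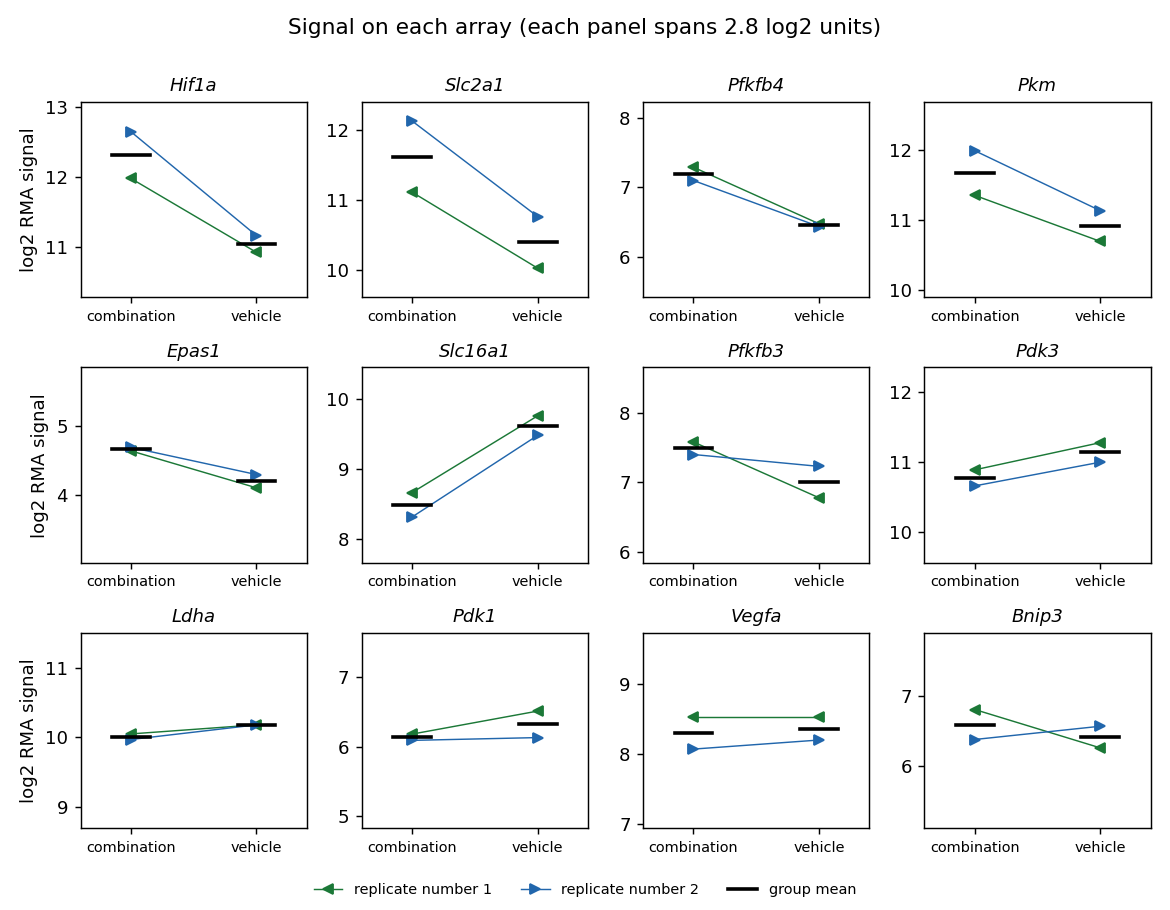
Log2 RMA signal of 12 members on each of the 4 arrays, combination left and vehicle right, with lines joining the arrays of the same replicate number and bars at the group means; each panel spans the same range of 2.8. Hif1a, Slc2a1, Pfkfb4, Pkm and Epas1 are higher on both combination arrays and Slc16a1 is lower, while Vegfa and Bnip3 overlap between the groups.

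The hexokinases, which phosphorylate glucose, differed by -0.17 for Hk1, 0.09 for Hk2 and -0.26 for Hk3. None passed, and the arrays of the groups overlapped for each of the 3. Hk3, the isozyme of myeloid cells, had 7.38 and 8.09 with the combination and 7.82 and 8.16 with vehicle, so its arrays varied more by number than by group.

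Both measured genes that set the activator of phosphofructokinase were higher on both combination arrays. Pfkfb4 encodes a bifunctional enzyme that makes and breaks down fructose-2,6-bisphosphate, the strongest activator of phosphofructokinase. Its signal was 7.29 and 7.10 with the combination and 6.48 and 6.44 with vehicle, with a wide gap between the groups and little spread within them. The Pfkfb4 difference was 0.74 (SE 0.14, 95% interval 0.37 to 1.11, limma adjusted p = 0.55), which is 1.67-fold. Pfkfb3, the inducible isozyme that favours synthesis, had 7.58 and 7.40 with the combination and 6.78 and 7.23 with vehicle. The Pfkfb3 groups did not overlap, and the difference of 0.48 (95% interval -0.05 to 1.02) was 0.80 within number 1 and 0.17 within number 2.

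The 3 phosphofructokinase genes had negative differences and did not pass. Pfkl, the liver type, had 7.25 and 7.14 with the combination and 7.42 and 7.41 with vehicle, a difference of -0.22 (95% interval -0.56 to 0.13), and Pfkp, the platelet type, differed by -0.10 (-0.44 to 0.24). The combination arrays of both genes lay below their vehicle arrays. Pfkm, the muscle type, which red cells also use, had 7.02 and 6.49 with the combination and 8.13 and 6.23 with vehicle. Its vehicle arrays lay 1.90 apart, more than in any other member, and vehicle array 1 was the highest of all 4. The Pfkm difference was -1.12 within number 1 and 0.26 within number 2. It was -0.43 on all arrays, 0.53 without vehicle array 1 and -1.38 without vehicle array 2, so its direction depended on the array left out.

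In the later steps of glycolysis, from aldolase to pyruvate kinase, 1 of 7 measured genes passed at an unadjusted p under 0.05. This was Pkm, the pyruvate kinase gene of proliferating and muscle cells, with 11.35 and 11.99 on the combination arrays and 10.69 and 11.13 on the vehicle arrays. The groups did not overlap, and the difference was 0.76 (SE 0.28, 95% interval 0.01 to 1.51, limma adjusted p = 0.89), which is 1.69-fold. It was 0.66 within number 1 and 0.86 within number 2. The Pkm value was 0.44 without combination array 2 and 0.54 without vehicle array 1, both no longer under an unadjusted p of 0.05 in limma. The splice forms of Pkm are not separated in these values.

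The remaining genes of this stretch did not pass. Gapdh, a triose phosphate dehydrogenase, had 16.19 and 16.40 with the combination and 16.21 and 16.39 with vehicle, a difference of -0.01 (95% interval -0.41 to 0.40), with the same order of the arrays in both groups. Aldoa, the main aldolase of blood cells, differed by 0.16, Aldoc by -0.10 within the background range, Tpi1 by -0.22 and Pgam1 by 0.05. Tpi1, which interconverts the triose phosphates, had 11.73 and 11.79 with the combination and 11.94 and 12.02 with vehicle, a small gap without overlap. Pgk1, the first ATP-forming enzyme of the pathway, differed by 0.26 on the probe set used and by 0.28 on a second one, neither passing. Pgk1 lies on the X chromosome, while the identifier of the probe set used names chromosome 12, so its signal may come from a copy there. The second one, with an X chromosome identifier, had 10.97 and 11.33 with the combination and 10.72 and 11.01 with vehicle. Many glycolytic genes have near-identical processed copies in the genome, so the signals of Gapdh, Pgk1, Pgam1, Aldoa, Tpi1, Pkm and Ldha may include them.

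Slc16a1 was the 1 member lower at an unadjusted p under 0.05. It encodes the monocarboxylate carrier MCT1, which moves lactate and pyruvate with a proton across the plasma membrane. The signal was 8.66 and 8.31 on the combination arrays and 9.76 and 9.48 on the vehicle arrays, so the gap between the groups exceeded the gap within either. The difference was -1.13 (SE 0.20, 95% interval -1.65 to -0.62, limma adjusted p = 0.50), which is 2.19-fold lower. It was -1.09 within number 1 and -1.17 within number 2, and between -1.31 and -0.95 without any 1 array.

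None of the other 3 lactate genes passed. Slc16a3, which encodes MCT4, the lactate exporter of glycolytic cells and an established HIF-1 target, had 5.66 and 5.35 with the combination and 5.24 and 5.29 with vehicle. Its means of 5.50 and 5.27 in the combination and vehicle groups lay in the background range, and its difference of 0.24 had a 95% interval of -0.19 to 0.66. Ldha, which turns pyruvate into lactate and is a classic HIF-1 target, had 10.05 and 9.97 with the combination and 10.18 and 10.18 with vehicle. The Ldha difference was -0.17 (95% interval -0.51 to 0.17), with both combination arrays slightly below the vehicle arrays. Ldhb, the heart-type subunit, differed by 0.11 and its groups overlapped.

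The 3 pyruvate dehydrogenase kinases, which hold back the oxidation of pyruvate in mitochondria, all had negative differences, and none passed. Pdk3 averaged 10.78 ± 0.16 with the combination and 11.14 ± 0.20 with vehicle (SD, n = 2 each). The groups did not overlap, and the difference of -0.36 (95% interval -0.81 to 0.09) was -0.39 within number 1 and -0.33 within number 2. Pdk1, the isozyme best known as a HIF-1 target, had 6.18 and 6.09 with the combination and 6.51 and 6.13 with vehicle, a difference of -0.19 (95% interval -0.66 to 0.29). Pdk2 differed by -0.12. The fourth isozyme, Pdk4, is not on the list and lay in the background range in both groups.

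The median size of the difference over the 36 members was 0.17, against a median gap of 0.25 between the combination arrays and 0.26 between the vehicle arrays. In 24 members at least 1 of these gaps exceeded the difference. The gap had the same sign in both groups for 30 of the 36, so most members differed with the replicate number in the same direction. This was not particular to the members. The deviations of same-numbered arrays correlated over all named genes (r = 0.47) and over those above background (r = 0.61, 2 pairs each). Pgam1, which shifts the phosphate of phosphoglycerate, was higher on the arrays numbered 2, by 0.94 with the combination and 0.58 with vehicle. Hk1, a hexokinase that red cells depend on, was lower on them, by 0.37 with the combination and by 0.52 with vehicle. The neutrophil and erythroid marker sums given above moved with the number as well, and their part in these gaps was not tested.

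**Figure D4:**
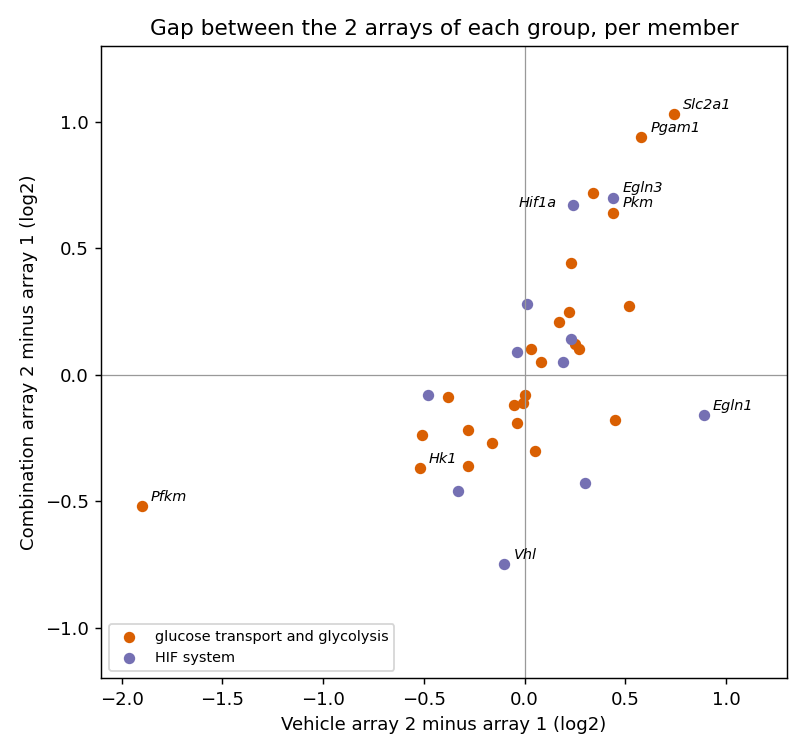
Array 2 minus array 1 (log2 RMA signal) in the vehicle group (x axis) and in the combination group (y axis) for the 36 measured members, coloured by glycolysis or HIF system. Most points lie in the lower left and upper right parts, with Slc2a1 and Pgam1 at the upper right, Pfkm far to the left and Egln1 at the lower right.

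Genes outside the list but in the same pathways were counted in 6 further lists. In 29 measured HIF targets beyond the members, 1 was higher (3.45%, against 2.66% of all named genes) and 2 were lower (6.9%, against 2.65%) at an unadjusted p under 0.05 in limma, which is near the shares of 3.53% and 5.14% among genes above background. The list's median was 0.02. Ddit4, an inhibitor of mTOR signalling that glucocorticoids also induce, had 7.72 and 7.03 with the combination and 6.13 and 5.74 with vehicle (difference 1.44, SE 0.29). Cxcr4, the marrow retention receptor, had 10.15 and 10.35 with the combination and 11.56 and 11.48 with vehicle (difference -1.27, SE 0.14). Tfrc, the transferrin receptor that supplies iron to red cell precursors, had 10.03 and 9.93 with the combination and 10.79 and 10.74 with vehicle (difference -0.79, SE 0.13); it is also among the erythroid markers. Their groups did not overlap, and limma's adjusted p was 0.59 for Ddit4, 0.30 for Cxcr4 and 0.49 for Tfrc. Without combination array 1, 2 genes of the list were higher. Of 16 measured oxygen sensing genes and HIF partners, 0 passed in either direction (limma), with Hsp90aa1, a chaperone of HIF-1α, at -0.25 and the ligase subunit gene Elob at -0.27.

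Glycogen and gluconeogenesis had 2 genes higher and 1 lower among 19 measured, against 2.66% and 2.65% of all named genes, with a median of -0.05. Pygl, the glycogen phosphorylase of liver and myeloid cells, had 8.49 and 8.62 with the combination and 7.61 and 7.80 with vehicle, a difference of 0.85 (SE 0.15, limma adjusted p = 0.49). Fbp1, which reverses the phosphofructokinase step, averaged 7.80 ± 0.43 with the combination and 6.94 ± 0.04 with vehicle (SD, n = 2 each), a difference of 0.86 (SE 0.24, limma adjusted p = 0.80). G6pc3, the glucose-6-phosphatase that neutrophils need, had 8.54 and 8.97 with the combination and 9.48 and 9.40 with vehicle, a difference of -0.69 (SE 0.19, limma adjusted p = 0.80). None of the 3 overlapped between the groups. The list had 1 higher gene without vehicle array 1 or vehicle array 2, and 0 lower genes without vehicle array 1 but 2 without combination array 1 or 2.

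All 8 measured pentose phosphate genes had negative differences, with a median of -0.26. Among named genes above background, 7608 of 12615 had negative differences as well (median -0.05). Prps2, which makes phosphoribosyl pyrophosphate for nucleotides, differed by -0.44 (SE 0.15, limma adjusted p = 0.85), and Prps1 differed by -0.35. Prps2 was the 1 gene that passed (12.5%, against 2.65% of all named genes and 5.14% of those above background). With a trend of the prior with intensity, with dim features left out, and without vehicle array 1 or vehicle array 2, 0 of the 8 passed in limma. Of 23 measured genes of pyruvate oxidation and the citric acid cycle, 0 passed in limma, and the median was -0.07. Dlat, a core subunit of pyruvate dehydrogenase, had 7.22 and 7.20 with the combination and 7.54 and 7.52 with vehicle, a difference of -0.32 (95% interval -0.65 to 0.01), and Fh1, fumarase, differed by -0.45. For 8 of the 23 (34.8%) both combination arrays lay below both vehicle arrays, against 22.8% of genes above background. Without vehicle array 1, 1 of these genes was lower at an unadjusted p under 0.05, and there were 2 without vehicle array 2, with the replicate number as a block or after centring.

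Isozymes and carriers used mainly in other tissues made up a list of 20 measured genes, 11 of them within the background range on every array. Ldhc, the testis lactate dehydrogenase, was the 1 gene that passed (difference 0.52, limma adjusted p = 0.79), and its arrays lay in that range. The share of higher genes was 5%, against 2.66% of all named genes, and that of lower ones was 0%, against 2.65%. Without combination array 1 no gene of this list was higher at that threshold, and without combination array 1 or vehicle array 2, 1 was lower. Pklr, the pyruvate kinase of liver and red cells, had 8.10 and 7.20 with the combination and 9.65 and 8.14 with vehicle, a difference of -1.25 (95% interval -2.81 to 0.32). Pklr was higher on the arrays numbered 1 in both groups, as were 5 of the 6 measured erythroid markers, while Slc4a1 was higher on those numbered 2. The part of red cell precursors in the Pklr values was not tested.

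**Figure D5:**
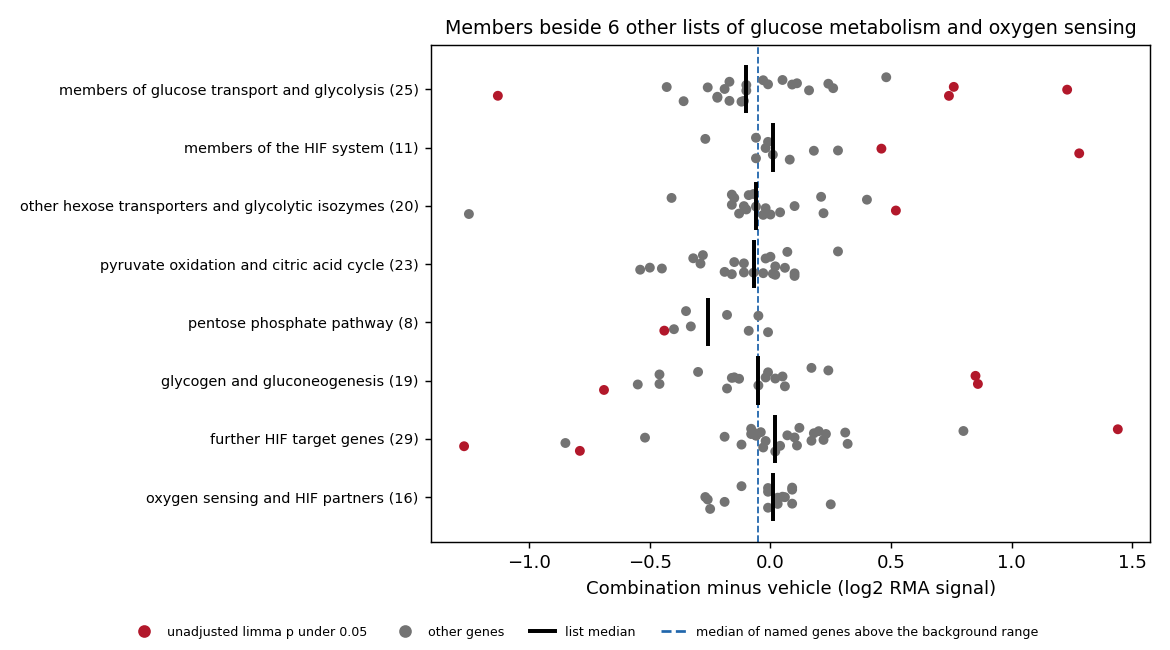
Difference between combination and vehicle (log2 RMA signal) of each gene in the glycolysis and HIF members and in 6 further lists, with the number of measured genes in brackets, red where limma's unadjusted p was under 0.05, a black bar at each median and a dashed line at the median of named genes above background (-0.05). The list medians run from -0.26 for the pentose phosphate pathway to 0.02 for the further HIF targets, and the members with the largest differences are Hif1a (1.28), Slc2a1 (1.23) and Slc16a1 (-1.13).

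Some markers of other cell types also differed between the groups. Of 10 measured mature neutrophil markers, 2 were higher at an unadjusted p under 0.05 (20%, against 2.66% of all named genes) and 0 lower in limma. These were the chemokine receptor gene Cxcr2, at 4.32 above vehicle, and the collagenase gene Mmp8, at 2.43 above it, while Ly6g, which defines mature neutrophils, lay in the background range in both groups. Of 7 measured monocyte and macrophage markers, 2 were higher and 2 lower (28.6% each, against 2.66% and 2.65% of all named genes), with linear sums of 6607 and 7898 on the combination arrays and 3601 and 5553 on the vehicle arrays. Most of the excess in these sums came from F13a1. It had 11.38 and 11.57 on the combination arrays and 8.52 and 8.58 on the vehicle arrays, a difference of 2.92. Cd14 differed by 2.43. The 2 lower genes were the macrophage growth factor receptor gene Csf1r (-0.91) and Adgre1 (-0.56). The higher sums with the combination were thus not shared by every marker. Differences were negative in all 6 measured erythroid markers (median -0.43) and all 8 measured stem and progenitor markers (median -0.19). So were those of all 7 immature granulocyte and monocyte markers (median -0.10). Among named genes above background, 7608 of 12615 had negative differences as well (median -0.05). In limma, 1 erythroid (16.7%), 1 stem and progenitor (12.5%) and 0 immature markers were lower at an unadjusted p under 0.05. The share among all named genes was 2.65%. The platelet chemokine gene Ppbp differed by 5.52, but the other measured platelet markers differed by between -0.38 and 0.10. The leptin receptor gene Lepr, listed as a stromal marker, differed by 3.49, and the rest of that list by between -0.10 and 0.23. In limma, Ppbp was 1 of 5 measured (20%) and Lepr 1 of 7 (14.3%) higher at an unadjusted p under 0.05, with 0 lower. The list medians were 0.10 and 0.01. Of 5 measured mast cell and basophil markers, Gzmb was higher (1.53) and Ms4a2 lower (-0.40), 20% each. Of 5 measured B cell markers, Ebf1 was lower (-0.55, 20%), within the background range in both groups, and 0 were higher. These counts are at an unadjusted p under 0.05 in limma, against 2.66% higher and 2.65% lower among all named genes. The part of these cell types in the differences of Slc2a1, Pkm, Hif1a and Slc16a1 was not tested.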

How the data were processed

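RNA from 2 combination and 2 vehicle samples was labelled from 10 ng of total RNA with an Affymetrix whole-transcript kit and read on 1 array each, per the labels' protocols. RMA and the Transcriptome Analysis Console are named, without versions or a genome build, per the submitters' processing notes; the values as deposited are on a log2 scale. RMA equalises the arrays' distributions, which hides a difference in total RNA per cell. Read depth does not apply, and precision is limited by the 4 arrays.

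Of 72688 rows, 6732 control rows were left out. Of the remaining 65956 features, 30604 had 1 gene symbol, 2146 several and 33206 none, and 827 symbols were updated through the RefSeq table of GRCm38.p6. Listed genes were matched by symbol or by a RefSeq synonym that named no other gene. The test was limma's moderated test (limma 3.58.1 in R 4.3.3, lmFit and eBayes, two-sided, group as the single term) on these features, with Benjamini-Hochberg adjustment over all of them at 0.05. It had 2 residual degrees of freedom, to which the prior added 2.59. The fit was tested on simulated data.

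Members and lists were chosen with earlier results of these data known. Every array's value is given for members with an unadjusted p under 0.05, or a difference of at least 0.5 without overlap, and for other members picked after their values were seen. Of each further list, up to 4 genes with the smallest p under 0.05 are named, or the 2 smallest where fewer than 2 pass. The 12 alternatives were a block for the replicate number, a trend of the prior with intensity, a robust prior, dim features left out, quantile normalization, centred arrays, control rows kept, averaged probe sets and each array left out. Figures were drawn with matplotlib 3.10.9.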

Additional observations from a re-analysis of the deposited data

How the results depend on the processing

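No member passed an adjusted p of 0.05 in any of the 12 alternatives (limma). The lowest adjusted p of a member was 0.19, for Slc16a1 with the replicate number as a block, where 19 features passed. The same 6 members had an unadjusted p under 0.05 with this block: 5 higher and 1 lower. The numbers are not said to mark shared mice or days. The deviations of same-numbered arrays correlated (r = 0.47 over named genes, 2 pairs), a hint from the data only.

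Without any 1 array, fits have fewer residual degrees of freedom, and the lone array of a group is assumed to vary like the others. The count of higher members was then between 2 and 6 (Hif1a and Pfkfb4 without combination array 2, and likewise without vehicle array 1), and that of lower members between 1 and 2 (Pfkm or Egln1 added without vehicle array 2 or 1). Members above in the combination numbered between 10 and 16 (27.8% to 44.4%), against 33.2% to 38.5% of all named genes. Those below numbered between 12 and 14 (33.3% to 38.9%), against 29.6% to 33.8%. Among named genes above background the shares were 25% to 28.3% above and 35.2% to 45% below. With 1 array in a group, non-overlap is easier to reach for any gene. The median of members lay between -0.033 and 0.051, against -0.012 on all arrays, and was -0.065 after centring. With control rows kept, 3 members were higher, without Slc2a1 and Pkm. Pkm was also lost with an intensity trend, with dim features left out, after quantile normalization and after centring. Epas1 was lost without either combination array or vehicle array 1. Of 144 counts for the further lists, 22 moved by over 1.5 times, among them lower counts with the block of 4 further HIF targets, 3 glycogen genes and 2 citric acid cycle genes. The causes were not tested. Hif1a, Pfkfb4 and Slc16a1 kept direction and threshold in all alternatives. Of 431 differences of single members under the alternatives, 383 kept direction and side of the threshold, 13 lost an unadjusted p under 0.05, 3 gained one and 32 turned direction. The turns concerned 19 members, none of them among the 6, and all but 2 came from leaving out 1 array. With each array left out in turn, the difference spanned 0 for Slc2a3 (-0.37 to 0.14), Slc2a6 (-0.16 to 0.09), Hk1 (-0.43 to 0.09), Hk2 (-0.04 to 0.22) and Hk3 (-0.62 to 0.10). The same held for Pfkm (-1.38 to 0.53), Gapdh (-0.11 to 0.10), Pgam1 (-0.41 to 0.52), Ldhb (-0.15 to 0.38) and Pdk1 (-0.38 to 0.01). It also held for Pdk2 (-0.25 to 0.02), Arnt (-0.05 to 0.04), Egln1 (-0.72 to 0.17), Egln3 (-0.27 to 0.43) and Vhl (-0.39 to 0.36). It held too for Vegfa (-0.29 to 0.17), Bnip3 (-0.04 to 0.39), Bnip3l (-0.13 to 0.16) and Car9 (-0.17 to 0.06). Of the other settings, quantile normalization gave 0.02 for Arnt and centring gave -0.04 for Bnip3l.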
